A study of Mus musculus with 6 samples.

Results

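Histone deacetylases were examined in mouse regulatory T cells (Treg), a CD4 lineage defined by Foxp3 that holds other immune cells in check. The genes considered were 10 zinc-dependent deacetylases, Hdac1 to Hdac9 and Hdac11, and every probe set whose single annotated gene symbol was one of them was used. There were 10 such probe sets, for 8 of the 10 genes, among 22626 probe sets in all. Hdac4 and Hdac8 had none, so their expression was not analysed here. Expression was measured on 6 arrays, with 3 samples in each of 2 groups, all of C57BL/6 background and sorted as CD4+YFP+. The control group, whose titles read B6_WT, carries Foxp3cre, a Cre recombinase driven by the Foxp3 gene. The other group, called USP7-titled here after its titles, also carries Foxp3cre; the series text gives it a floxed Usp7 allele, while its genotype field gives a floxed HDAC11 allele. Neither allele is assumed here. The ages of the mice, and whether each sample came from an animal of its own, are not stated. The p-values therefore rest on how far samples vary within their groups, pooled over both groups and moderated by a trend over all probe sets. That variation may be technical.

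Histone deacetylases remove acetyl groups from lysines of histones and of other proteins, which as a rule makes chromatin less accessible. Class I enzymes (Hdac1, Hdac2, Hdac3 and Hdac8) sit mostly in the nucleus, and all but Hdac8 work inside large co-repressor complexes. Class IIa enzymes (Hdac4, Hdac5, Hdac7 and Hdac9) shuttle between nucleus and cytoplasm, bind MEF2 transcription factors and have little catalytic activity of their own. Class IIb Hdac6 acts largely on cytoplasmic proteins such as tubulin and Hsp90, and Hdac11, the only class IV enzyme, removes long fatty acyl groups more readily than acetyl groups. In Treg the Foxp3 protein is itself acetylated, and mice lacking Hdac6, Hdac9 or Hdac11 have been studied for stronger Treg suppression, whereas Hdac3 is needed for Treg function.

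The USP7-titled arrays had lower Hdac9, Hdac11 and Hdac7 and slightly higher Hdac1 than the controls. By the brightest probe set of each gene, Hdac9 stood at 53.6% of the control level, Hdac11 at 67.1%, Hdac7 at 83.8% and Hdac1 at 115%. Hdac2, Hdac3, Hdac5 and Hdac6 did not pass the test. All 3 class I probe sets had a positive difference and all 7 probe sets of class IIa, IIb and IV, from 5 genes, a negative one. Over all 22626 probe sets 13005 differences were negative. Of the members only the 4 named first passed. Each passed a limma test across all probe sets at a Benjamini-Hochberg adjusted p of 0.05. Of the 10 probe sets 3 were lower and 1 higher, beside 17.1% of all probe sets lower and 16.2% higher, or 33.3% in either direction. A count over so few probe sets does not set the family apart from other genes. The median difference was -0.22 on the log2 scale over the 10 probe sets and -0.06 over all probe sets.

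**Figure D1:**
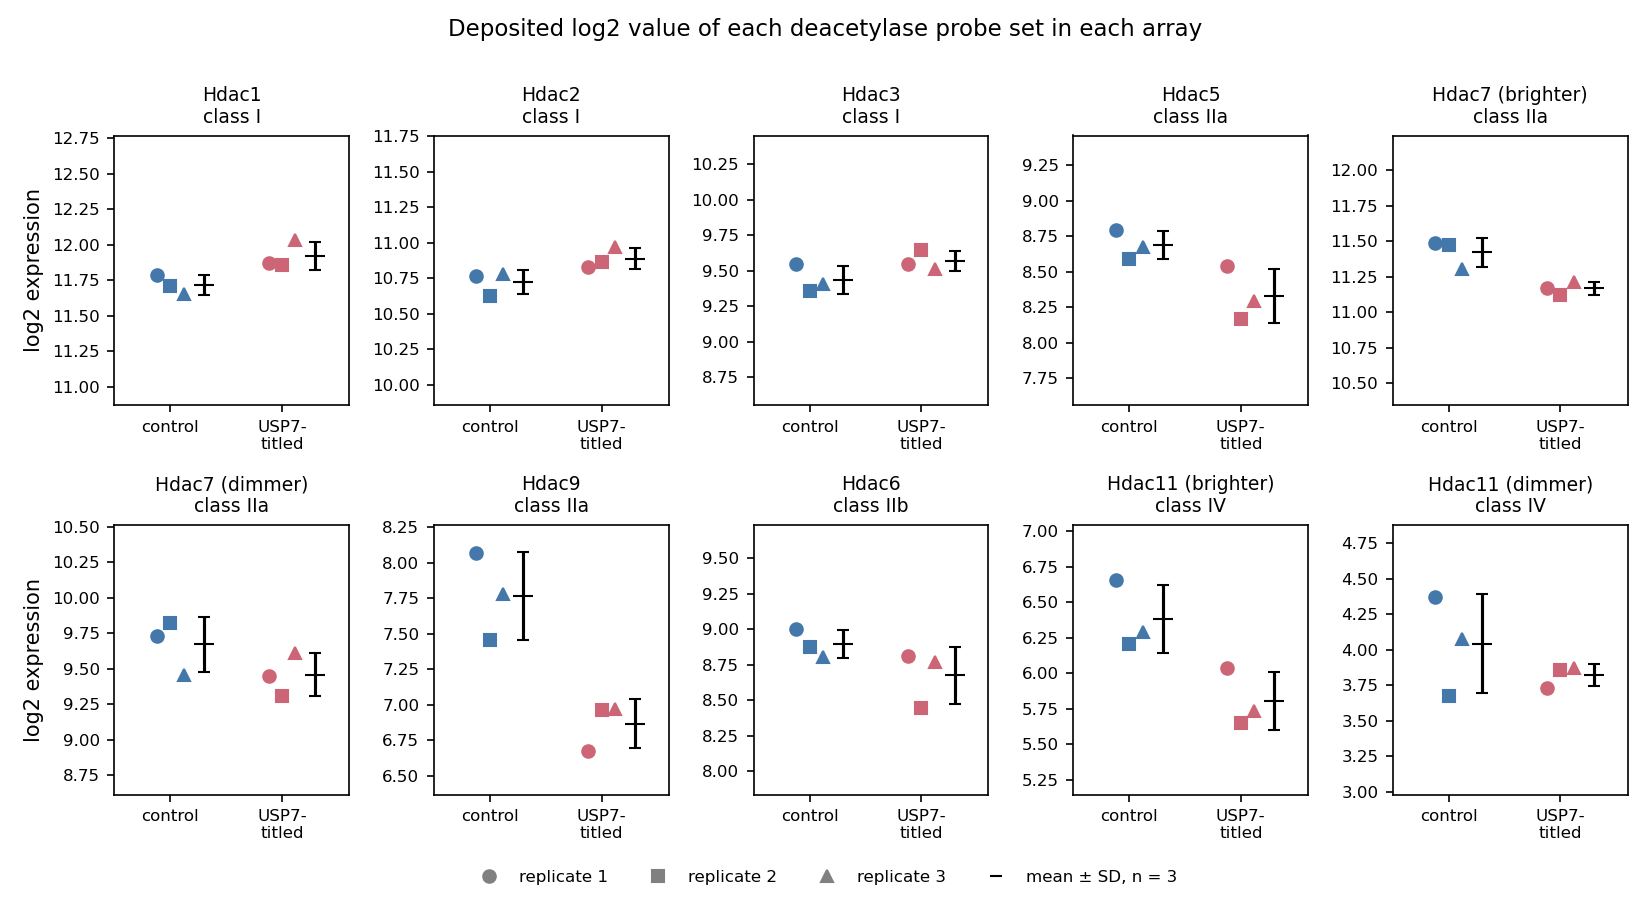
Deposited log2 expression (vertical axis) of the 10 deacetylase probe sets in control (blue) and USP7-titled (red) arrays; symbols mark the replicate, and bars show mean ± SD, n = 3 per group. Every panel spans the same number of log2 units, so that the separation of Hdac9, whose groups lie 0.48 apart at their nearest, can be compared with the overlap of Hdac3, Hdac6 and the dimmer Hdac7 and Hdac11 probe sets.

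The groups differed in other ways that apply to every value below. Usp7 fell from 11.68 ± 0.06 to 10.67 ± 0.11 on the log2 scale (SD, n = 3 each) by its brighter probe set, and Foxp3 from 12.98 ± 0.15 to 7.004 ± 0.25, while Cd4, which defines the sorted lineage, differed by 0.01. Summed linear signals of 10 Treg and CD4 markers, Foxp3 included, spanned 59469 to 61127 in the control group but 46962 to 47450 in the other. Of these markers 7 were lower, and the median difference of the list was -0.15 (log2). Over all genes 15.6% were lower and 16.9% higher, the shares to set beside each count of markers here. Macrophage and neutrophil markers were higher for 11 of 15 genes, their sums being 1888 to 2417 and 6186 to 7545. The sums of 8 CD8 T and NK cell markers, 2 of them higher and 1 lower, were 2951 to 3032 and 6745 to 7144. Of these markers Gzma rose from 4.78 to 7.99 and Nkg7 from 9.47 to 12.24 (log2), while Prf1 fell from 10.33 to 9.88. The median difference of the list was -0.07. For 8 B cell markers, 1 of them higher, the sums were 1418 to 1445 and 1464 to 1600. For 6 dendritic cell markers, 1 higher and 1 lower, they were 534 to 580 and 459 to 519. Each of 19 measured G2/M genes of dividing cells was higher, with sums of 4530 to 4958 and 31735 to 32799. The female transcript Xist averaged 12.50 in controls and 5.30 in USP7-titled arrays, and Y-linked Eif2s3y 4.50 and 10.15. Sex therefore differed with the group throughout, and their effects cannot be told apart. As a measure of RNA integrity, Gapdh signal at the 3' minus the 5' end ran from 0.989 to 1.23 among controls and from 0.907 to 0.986 among the others, whereas that of actin overlapped, at -0.286 to -0.151 and -0.180 to -0.155. The part of these differences in the deacetylase results was not tested, and in bulk RNA fewer cells of a type cannot be told apart from less RNA per cell.

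Class IIa held the largest difference among the 10 probe sets. Hdac9, a repressor partner of MEF2 and the deacetylase most often linked to Treg suppression, had control values of 8.07, 7.46 and 7.78 and USP7-titled values of 6.67, 6.96 and 6.97 (probe set 1421306_a_at, a kind designed against several transcripts of 1 gene). Every USP7-titled array lay below every control, and control replicate 1 was the highest. The mean went from 7.77 ± 0.31 to 6.87 ± 0.17 (SD, n = 3 each). The log2 difference was -0.90 (SE 0.17, 95% interval -1.27 to -0.53; limma adjusted p = 0.00207), a 1.87-fold fall. Of all probe sets 6.04% had a larger absolute difference. Hdac9 passed in all 19 alternative settings, with differences of -1.06 to -0.74 and adjusted p of 0.000829 to 0.0109. The 1 probe set does not tell which promoter of the gene its signal came from.

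The reference annotation (RefSeq, GRCm38.p6) gives Hdac9 a pair of widely separated start sites. The 250 bases before each are shown because Hdac9 changed most, beside the 250 bases before the start of Hdac5, its class IIa relative with the next larger difference. Capitals mark CCAAT boxes (CCAAT, on either strand) and matches to the MEF2 consensus.
Hdac9, chr12:34528890-34529139, minus strand: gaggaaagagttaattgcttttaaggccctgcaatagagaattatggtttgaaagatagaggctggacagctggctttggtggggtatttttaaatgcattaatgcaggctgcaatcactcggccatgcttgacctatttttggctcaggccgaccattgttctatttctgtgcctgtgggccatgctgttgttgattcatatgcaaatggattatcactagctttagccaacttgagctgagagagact
Hdac9, chr12:34917096-34917345, minus strand: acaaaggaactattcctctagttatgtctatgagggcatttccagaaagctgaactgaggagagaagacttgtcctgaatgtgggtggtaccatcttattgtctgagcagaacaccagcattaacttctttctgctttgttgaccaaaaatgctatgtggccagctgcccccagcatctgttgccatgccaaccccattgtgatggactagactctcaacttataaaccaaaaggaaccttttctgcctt
Hdac5, chr11:102230173-102230422, minus strand: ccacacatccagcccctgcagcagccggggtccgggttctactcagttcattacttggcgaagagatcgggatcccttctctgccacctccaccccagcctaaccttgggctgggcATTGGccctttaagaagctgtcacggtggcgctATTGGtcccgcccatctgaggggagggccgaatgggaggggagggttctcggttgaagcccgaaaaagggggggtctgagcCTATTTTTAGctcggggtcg
The Hdac5 window held 1 match to the MEF2 consensus, CTATTTTTAG, which began 20 bases before the start site, and 2 CCAAT boxes. Neither Hdac9 window held either motif. Over 32851 windows of this length, 2.92% held the MEF2 consensus and 33.8% a CCAAT box. Windows were found for 8 of the 10 genes, with Hdac4 and Hdac8 among them but not Hdac1 or Hdac3. Of these 12 windows 1 held the MEF2 consensus and 5 a CCAAT box (Hdac4, Hdac5, Hdac6, Hdac8 and Hdac11). None held the E2F motifs TTTGGCGC or TTTCCCGC, which 0.417% and 0.895% of all windows hold. The Hdac9 windows were 43.6% and 44.4% G and C, the Hdac5 window 60.8%. These are matches of letters on either strand, not measured binding sites, and the motifs do not overlap each other in the windows printed.

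Hdac5, a class IIa enzyme that is exported from the nucleus when kinases phosphorylate it, gave 8.79, 8.59 and 8.68 on the control arrays against 8.54, 8.17 and 8.29 on the others. The groups did not overlap, but USP7-titled replicate 1 lay only 0.06 below the lowest control. The difference of -0.36 (SE 0.13, 95% interval -0.64 to -0.08) did not pass (limma adjusted p = 0.0513). It passed in 7 of 19 alternative settings, with adjusted p of 0.0186 to 0.265.

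Hdac7, which is abundant in T lineage cells and has been described in a complex with Foxp3 and the acetyltransferase Kat5, had 2 probe sets. The brighter (1420813_at) had control values of 11.49, 11.47 and 11.31 and USP7-titled values of 11.17, 11.12 and 11.21. Its groups did not overlap, and the nearest arrays lay 0.10 apart. It fell by 0.25 on the log2 scale (SE 0.06, limma adjusted p = 0.0103). The dimmer (1420812_at) read 9.73, 9.82 and 9.46 against 9.45, 9.31 and 9.61, so the groups overlapped, with control replicate 3 inside the range of the USP7-titled arrays. Its difference of -0.21 (SE 0.12) did not pass (limma adjusted p = 0.205). The 2 differences themselves were compared within arrays, and the brighter minus the dimmer was -0.04 (95% interval -0.32 to 0.24, limma adjusted p = 0.881). Scaled to the hybridization spikes, which are control RNAs added to each array, the brighter probe set was at -0.10 (limma adjusted p = 0.371), and without control replicate 1 it was at -0.22 (limma adjusted p = 0.0510). Hdac7 also missed the threshold with its probe sets averaged (-0.23, limma adjusted p = 0.0519) and, for the brighter one, with eBayes without trend (limma adjusted p = 0.0631).

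Hdac11, the smallest of these enzymes and the gene named in the genotype field, had 2 probe sets, both among the dimmer ones of the array. The brighter (1451229_at), at the 27.7th percentile of control means, had control values of 6.65, 6.20 and 6.29 and USP7-titled values of 6.04, 5.65 and 5.74. Replicate 1 was the highest in each group, yet the groups stayed 0.17 apart. The log2 difference was -0.58 (SE 0.16, 95% interval -0.94 to -0.22; limma adjusted p = 0.0190), which leaves 52.3% to 86.1% of the control level. For comparison, the brighter Usp7 probe set differed by -1.01 (SE 0.07) in the same arrays. The dimmer Hdac11 probe set (1454803_a_at), at the 5.98th percentile, read 4.37, 3.68 and 4.07 against 3.73, 3.86 and 3.87. All 3 of its USP7-titled values lay inside the control range, and its difference of -0.22 (95% interval -0.59 to 0.15) did not pass (limma adjusted p = 0.354). Within arrays the brighter minus the dimmer probe set changed by -0.35 (95% interval -0.76 to 0.05, limma adjusted p = 0.281), while 6.82% of all 7987 such pairs passed. Without control replicate 1 the brighter probe set was at -0.44 (limma adjusted p = 0.0878), without USP7-titled replicate 2 at -0.50 (limma adjusted p = 0.0645), and with both probe sets averaged at -0.40 (limma adjusted p = 0.0583). Where the probes lie relative to a floxed exon was not analysed here, so neither the fall nor the remaining signal tells which allele was deleted.

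The Hdac11 promoter window is shown because the genotype field, unlike the titles and the series text, names this gene. It held 1 CCAAT box, in capitals as ATTGG on the printed strand, which began 150 bases before the start site, and no MEF2 or E2F match.
Hdac11, chr6:91156565-91156814, plus strand: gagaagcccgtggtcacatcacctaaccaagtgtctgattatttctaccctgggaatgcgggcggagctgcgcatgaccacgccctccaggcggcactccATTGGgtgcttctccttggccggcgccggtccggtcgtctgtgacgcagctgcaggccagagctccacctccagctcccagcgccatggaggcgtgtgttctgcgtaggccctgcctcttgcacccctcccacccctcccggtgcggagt

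Of 3 genes that HDAC11 is reported to act on, 2 rose, beside 16.9% of all genes that were higher by their brightest probe set. Il10, the suppressive cytokine gene that HDAC11 is known to repress in antigen-presenting cells, rose from 7.74 ± 0.06 to 8.36 ± 0.05 (SD, n = 3 each; limma adjusted p = 0.00147). Cdt1, a replication licensing factor that binds HDAC11, rose by 0.91 (SE 0.11, limma adjusted p = 0.000105), in arrays where all 19 G2/M genes were also higher; its 2 other probe sets were at 0.85 and -0.14, the last dim and not passing. Shmt2, a serine metabolism enzyme and HDAC11 substrate, was at 0.17 and did not pass (limma adjusted p = 0.184).

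Among class I members, Hdac1, a catalytic subunit of the Sin3, NuRD and CoREST complexes, gave 11.79, 11.71 and 11.65 on the control arrays against 11.87, 11.86 and 12.04 on the others. The groups did not overlap, by 0.07, and USP7-titled replicate 3 was the highest. The difference of 0.20 (SE 0.06, limma adjusted p = 0.0230) corresponds to 115% of the control level (95% interval 105% to 126%). Scaled to the spikes it was at 0.36 (limma adjusted p = 0.00295), and after quantile normalization at 0.13 (limma adjusted p = 0.134). It did not pass with eBayes without trend (limma adjusted p = 0.130) or without USP7-titled replicate 3 (0.15, limma adjusted p = 0.0909), control replicate 2 (0.20, limma adjusted p = 0.0648) or control replicate 3 (0.17, limma adjusted p = 0.0671).

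Hdac2, the close paralog of Hdac1 in the same complexes, gave 10.77, 10.62 and 10.78 on the control arrays against 10.82, 10.86 and 10.97 on the others. The groups were separate by only 0.05, and the difference of 0.17 (95% interval 0.01 to 0.32) did not pass (limma adjusted p = 0.104). Scaled to the spikes it was at 0.32 and passed (limma adjusted p = 0.0210). Hdac3, the catalytic subunit of the NCoR and SMRT complexes, read 9.55, 9.36 and 9.41 against 9.55, 9.65 and 9.51. Its groups overlapped, with a difference of 0.13 (95% interval -0.07 to 0.34, limma adjusted p = 0.315), which spans levels from just below the control to 127% of it. Scaled to the spikes Hdac3 was at 0.29 and did not pass (limma adjusted p = 0.0559).

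Hdac6, the class IIb enzyme, lies on the X chromosome, in groups that also differ in sex. Its control values were 9.005, 8.88 and 8.81 and its USP7-titled values 8.82, 8.45 and 8.77. USP7-titled replicate 1 lay above the lowest control, and the difference of -0.22 (95% interval -0.50 to 0.06) did not pass (limma adjusted p = 0.213).

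**Figure D2:**
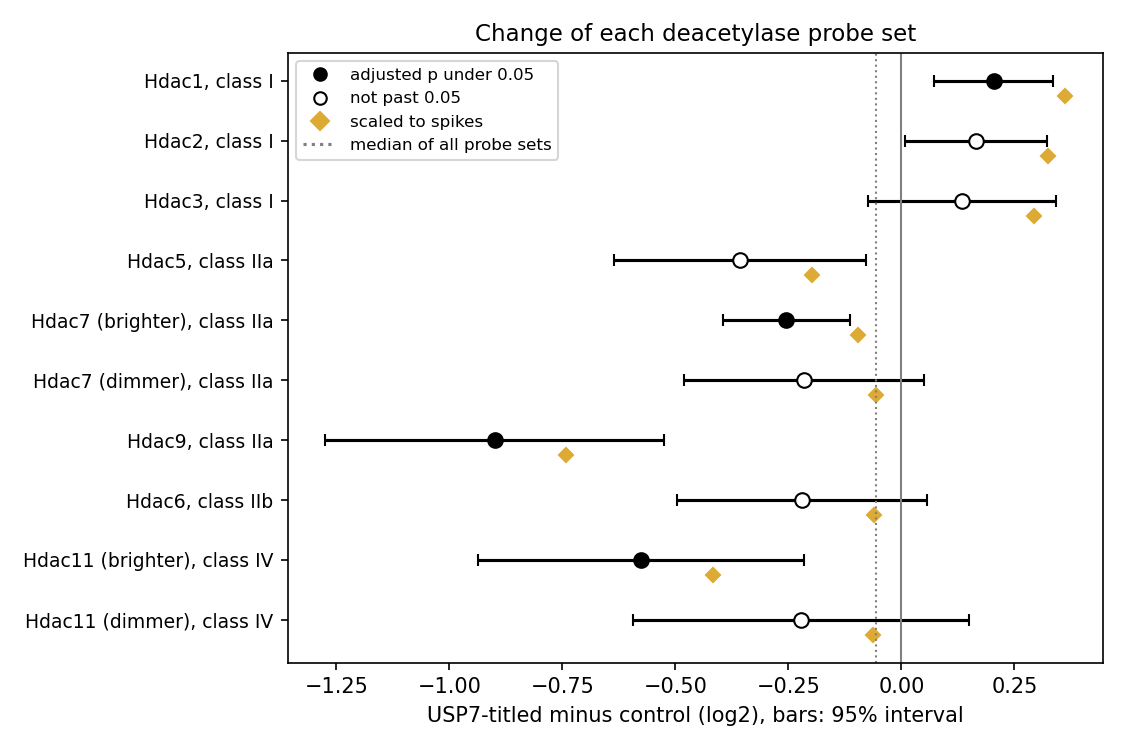
Differences between USP7-titled and control arrays (horizontal axis, log2) with 95% intervals for the 10 deacetylase probe sets; filled circles passed an adjusted p of 0.05, diamonds give the value after scaling to the hybridization spikes, and the dotted line is the median of all probe sets at -0.06. The intervals of Hdac9, Hdac5 and the brighter Hdac11 and Hdac7 probe sets lie below 0 and those of Hdac1 and Hdac2 above it, although Hdac5 and Hdac2 did not pass after adjustment. By its construction spike scaling shifts the difference of every probe set by the same amount, here to the right. That shift turned no sign among the 10 probe sets.

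The exact permutation test over the 6 arrays, two-sided, gave its smallest possible p of 0.1 for the 6 probe sets whose groups did not overlap (Hdac1, Hdac2, Hdac5, Hdac9 and the brighter Hdac7 and Hdac11). Of the 10 probe sets 4 did not overlap in the lower and 2 in the higher direction, beside 25.6% and 20.1% of all probe sets, or 45.7% in either direction. It gave 0.2 for Hdac3, Hdac6 and the dimmer Hdac7 probe set and 0.4 for the dimmer Hdac11 probe set. Control replicate 1 was the highest control in 8 of the 10 probe sets, and without it 1 member, Hdac9, remained lower and Hdac1 higher. Its array median of 7.96 was also the highest of the 6, the lowest being 7.91. Scaling to the spikes moved the median of all probe sets from -0.06 to 0.10. In that setting 8.57% of all probe sets were lower and 22.8% higher, 72.7% of calls being higher against 48.7% as deposited. Of the members 1 was then lower (Hdac9) and 2 higher (Hdac1 and Hdac2).

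**Figure D3:**
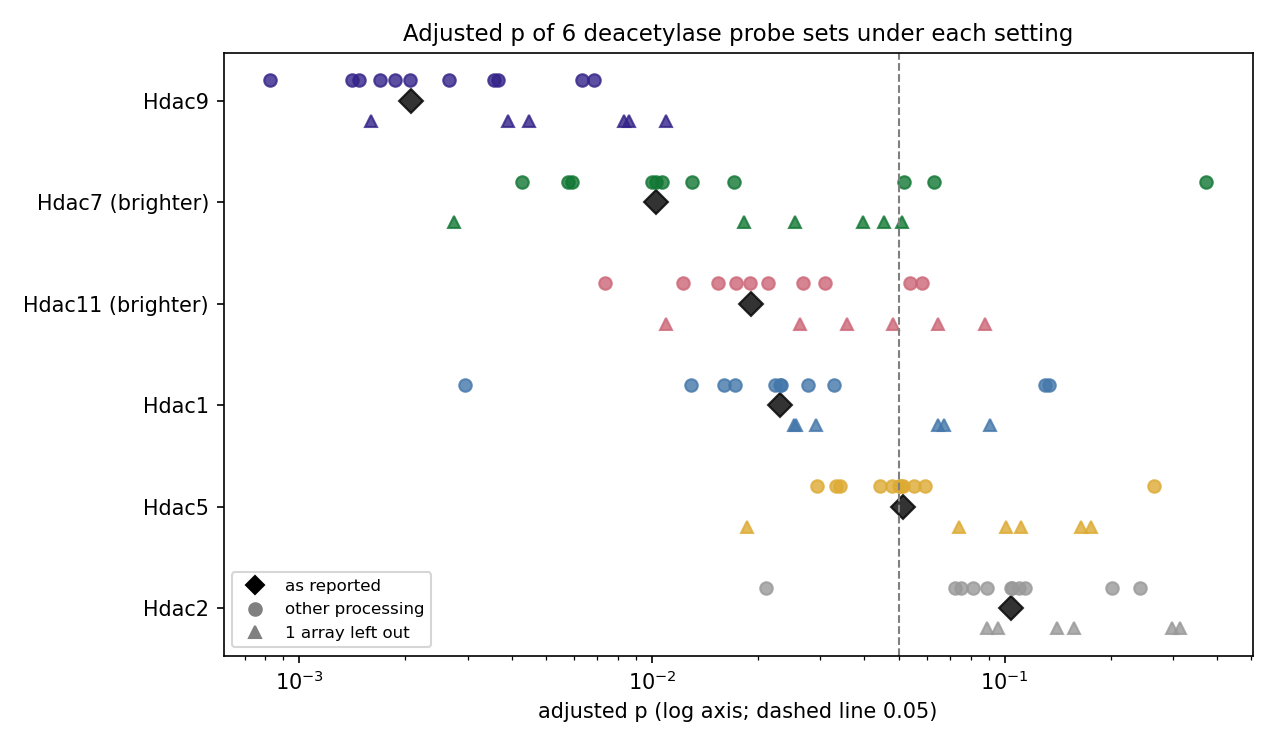
Adjusted p (horizontal log axis) of 6 deacetylase probe sets as reported (black diamonds), under other processing (circles) and with 1 array left out (triangles); settings that change only the threshold are not drawn, and the dashed line is 0.05. All points of Hdac9 lie to the left of the line, at 0.0109 or less, whereas the points of the other 5 probe sets fall on both sides.

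The co-repressor complexes that carry Hdac1, Hdac2 and Hdac3 went both ways. Of 28 measured subunits of 4 complexes 6 were higher and 7 lower, with a median of -0.09; over all genes 16.9% were higher and 15.6% lower, with a median of -0.05. In the Sin3 complex 5 of 11 were higher and 2 lower. Sap30, a subunit that links Sin3 to Hdac1, rose by 1.41 (SE 0.11, limma adjusted p = 6.71e-06), a 2.66-fold change and the largest of the list. The scaffold Sin3a fell by 0.63 (limma adjusted p = 0.000273; its other probe sets were at -0.40, which passed, and -0.27, which did not). Rbbp7, a histone chaperone shared with NuRD, rose by 0.50 (limma adjusted p = 5.20e-05), and its other probe set rose by 0.42. In the NuRD complex, which joins deacetylation to nucleosome remodelling, 3 of 10 were higher and 2 lower. Besides Rbbp7 the rule for naming took Gatad2b (-0.34, limma adjusted p = 0.00356) and the remodelling ATPase Chd4 (-0.27, limma adjusted p = 0.0197). Neither passed after spike scaling (limma adjusted p = 0.176 and 0.280), where 6 NuRD subunits were higher. The other Chd4 probe sets, at -0.29 and -0.14, did not pass.

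The CoREST complex, which pairs Hdac1 or Hdac2 with the histone demethylase Kdm1a, had 2 of 6 measured members lower. Over all genes 15.6% were lower, also the share for the NCoR and SMRT count below. Scaled to the spikes, 1 CoREST member was lower. Its histone reader Phf21a fell by 0.72 (limma adjusted p = 7.68e-06), with its other probe set at -0.57, and the scaffold Rcor3 fell by 0.48 (limma adjusted p = 0.0115, but 0.0651 after spike scaling). Kdm1a itself was at -0.05 and did not pass. In the NCoR and SMRT complexes, the partners of Hdac3, 1 of 3 was lower: Gps2 fell by 0.47 (limma adjusted p = 0.00116).

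Of 17 measured MEF2 factors, 14-3-3 proteins and kinases that bind or regulate class IIa enzymes, 4 were higher, 1 was lower and 12 missed the threshold (median 0.01), beside 16.9% of all genes higher and 15.6% lower. Mef2d, a MEF2 factor bound by class IIa enzymes, fell by 0.55 (SE 0.06, limma adjusted p = 7.03e-05), and its other probe set fell by 0.60. Mef2a was at -0.03 and Mef2c at 0.46, and neither passed. Of 6 genes for 14-3-3 proteins, which hold phosphorylated class IIa enzymes in the cytoplasm, 4 rose: Ywhag (0.39), Ywhah (0.37), Ywhae (0.20) and Ywhaq (0.18), the last 2 named after their values were seen. Other Ywhag probe sets were at 0.28 and 0.01 and did not pass. Ywhab (0.02) and Ywhaz (-0.10) did not pass.

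**Figure D4:**
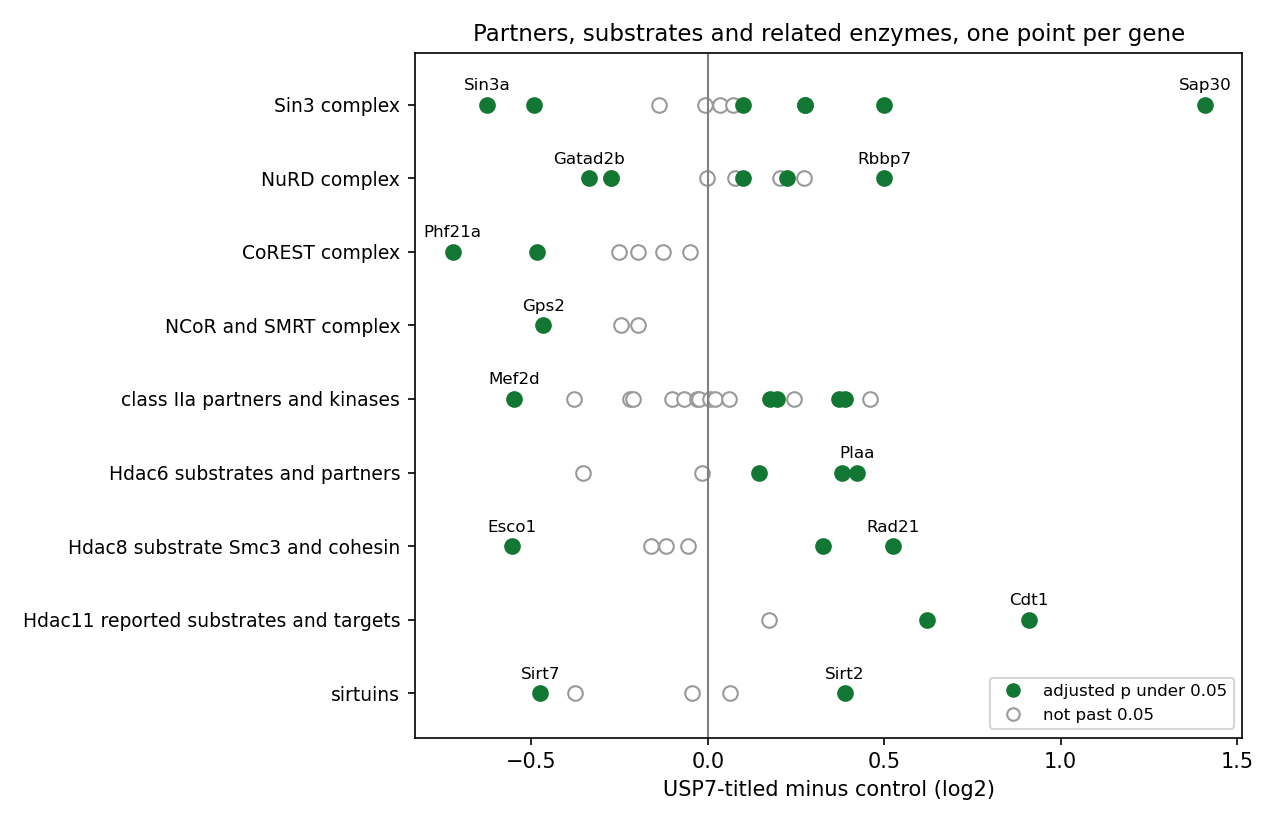
Differences between USP7-titled and control arrays (horizontal axis, log2) for the measured genes of 9 lists, 1 point per gene by its brightest probe set; filled points passed an adjusted p of 0.05, and a named point is an end of its list that passed. Sap30 lies farthest from 0, at 1.41, and 3 of the 9 CoREST, NCoR and SMRT points passed. All 9 lie below 0 as deposited, as do 7105 of all 12393 genes; scaled to the spikes, 4 of the 6 CoREST and 3 of the 3 NCoR and SMRT points do.

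For the 3 small lists that follow, the shares over all genes were again 16.9% higher and 15.6% lower. Of 5 measured Hdac6 substrates and partners 3 were higher: the ubiquitin-binding Plaa (0.42, with a dim probe set at -0.25 that did not pass), the chaperone Hsp90aa1 (0.38, with other probe sets at 0.34 and 0.51) and the segregase Vcp (0.15, limma adjusted p = 0.0464). Vcp did not pass after quantile normalization (limma adjusted p = 0.258), and its other probe set fell by 0.67 (limma adjusted p = 0.0385). Hdac8 deacetylates the cohesin subunit Smc3, and of 6 genes around it 2 were higher and 1 lower. Rad21 rose by 0.53, with its other probe sets at 0.62 and 0.86, and Smc3 by 0.33, with its other at 0.21 not passing; Esco1, the acetyltransferase of Smc3, fell by 0.56, with its other at -0.18 not passing. Sirtuins are NAD-dependent deacetylases unrelated in sequence to the zinc-dependent ones. Of 5 measured 1 was higher, Sirt2 (0.39, limma adjusted p = 0.00396), and 1 lower, Sirt7 (-0.48, limma adjusted p = 0.000268).

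Genes with patterns most like those of Hdac11 and Hdac9 were ranked by Pearson's r over the 6 arrays, among 6508 genes brighter than the median probe set. For Hdac11 they were Zfp830 (r = 0.991), Brat1, Cwf19l1, Fbxw5 (r = 0.983) and Cdk8. For Hdac9 they were Ktn1 (r = 0.998), Zfp53, Akna, Ntpcr and Rreb1 (r = 0.992). As many as 223 genes exceeded r = 0.9 with Hdac11 and 568 with Hdac9, and the points share arrays and the difference between groups, so these are descriptions only. All of these 10 genes had negative differences; in Rreb1 it was -0.94, close to that of Hdac9, and in Cwf19l1 -0.14. The differences of Zfp830, Brat1, Cwf19l1, Cdk8 and Ntpcr did not pass.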

How the data were processed

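The deposited values are log2 expression per probe set for 6 arrays, as the authors supplied them. The base was read from the values, and no source used here names the summarisation or normalization. Amplification and biotin labelling started from 100 ng of RNA, per the labels' protocols. No array backgrounds were used, and low signals compress fold changes. The table has 22690 rows, of which 64 are array controls and were not tested. In the 2016 annotation 20380 others have a single symbol, 691 several and 1555 none. Gene lists used the brightest probe set of a gene (12393 genes).

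Groups follow the titles. A 2-sided moderated test (limma version 3.58.1, R version 4.3.3; eBayes with trend) covered 22626 probe sets, with Benjamini-Hochberg adjustment. Differences are USP7-titled minus control. Probe sets of 1 gene were compared by the same fit on within-array differences (7987 pairs). Members and lists were chosen with earlier results of these data known. Named are all members, Usp7, Foxp3, Xist, Eif2s3y and the 5 genes most like each of Hdac11 and Hdac9. Up to 3 genes past the threshold with the largest changes are named per partner, substrate, sirtuin and CD8 T and NK list. Each of these lists had such genes. The other marker lists and the G2/M list are given by counts and sums. Other names were chosen after their values were seen. Precision is limited by 3 arrays per group (median residual SD 0.141). On simulated data for this comparison with 22626 probe sets, 200 of them changed, 2% of changes of 0.25, 18% of 0.5, 88% of 1 and 98% of 2 on the log2 scale were recovered. In the real data 33.3% of probe sets passed, and with more passing the adjustment is less strict. The simulated shares are therefore not the recovery in the real data. Deviations of arrays with the same replicate number correlated at -0.05 to 0.09. With 3 arrays per group this cannot decide whether the numbers pair samples, and the main fit used no block. The 19 alternatives concern scaling, filtering, features, moderation, thresholds, the block and left-out arrays.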

Additional observations from a re-analysis of the deposited data

How the results depend on the processing

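No member difference reversed its sign in any of the 19 alternatives that gave a value. Outside the brighter Hdac11 probe set, 146 of 165 recomputed member values kept their side of the threshold, 11 lost a call and 8 gained one. Leaving out the dimmest 40% of probe sets removes both Hdac11 probe sets, so that setting gives no Hdac11 value. As reported 3 member probe sets were lower and 1 higher, and 3865 and 3673 of all probe sets.

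Scaled to the 18 hybridization spike probe sets, 1 member was lower and 2 higher, 1938 of all probe sets were lower, and Hdac11 was at -0.42 (limma adjusted p = 0.0539). Quantile normalization and eBayes without trend each left 0 members higher (limma; also 0 at an unadjusted p under 0.05). At a threshold of 0.01, 1 member was lower and 0 higher (2 at an unadjusted p under 0.05), 2350 of all probe sets were lower, and Hdac11, at -0.58, did not pass. By the brightest probe set 1976 genes were lower and 2102 higher, and with probe sets averaged 2202 and 2076; these settings test genes, which are fewer. Averaged, Hdac11 was at -0.40. With 1 array left out, 1 to 4 members were lower and 0 to 1 higher, and Hdac11 ranged from -0.69 to -0.44; limma pools the spread over both groups there. No pair of probe sets of Hdac7 or Hdac11 differed in any setting run (0 pairs, limma), with at most 1 at an unadjusted p under 0.05. The replicate numbers share no stated origin; with the replicate number as a block 4 members were lower, Hdac5 being added (limma adjusted p = 0.0442), 1 was higher, and Hdac11 had an adjusted p of 0.00736 (limma). Of the controls 2 of 3, and of the USP7-titled arrays 1 of 3, correlated best with their own number. Other causes were not tested.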
